A study of Mus musculus with 12 samples.

Results

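Elongation factor 2 and the enzymes that build its diphthamide were followed in mouse tongue epithelium, as 9 genes listed by symbol: Eef2, Eef2k, Dph1, Dph2, Dph3, Dph5, Dph6, Dph7 and Dnajc24. All 9 were found among the 49164 genes with counts, and all 9 were among the 14231 genes abundant enough to test. RNA was sequenced from 12 samples of Langerin-DTR mice, 6 given diphtheria toxin (DT) and 6 given phosphate-buffered saline (PBS). The first injection came at 2 weeks of age, and dosing went on 2 times weekly into adulthood. Both groups carry the transgene, in which the langerin gene drives the toxin receptor, so that the only cells made sensitive are those that express langerin, in this tissue the Langerhans cells. The RNA is that of the whole digested epithelium, in which keratinocytes make up most of the cells. In such bulk RNA, fewer cells of a type and less RNA per cell cannot be told apart.

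Elongation factor 2, encoded by Eef2, is the GTPase that moves the ribosome along the mRNA after each peptide bond. One of its histidines is converted to diphthamide, a modification known from this protein alone, and the catalytic fragment of diphtheria toxin attaches ADP-ribose to it, which stops translation. Mouse cells carry the same target, but the mouse version of the receptor, the growth factor HB-EGF, binds the toxin poorly, and this is why the transgene is needed. In the synthesis, Dph1 and Dph2 form the enzyme that adds the first chemical group to the histidine, with Dph3 as electron donor and the J-domain protein Dnajc24 (also called Dph4) as a further factor. Dph5 then methylates the intermediate, Dph7 removes a methyl group from it, and Dph6 adds the final amide. Eef2k, a kinase activated by calcium and calmodulin, phosphorylates elongation factor 2 and slows it.

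The level of langerin mRNA went with the labels: Cd207 had 53 to 92 counts in each PBS sample and 4 in all DT samples together. Total counts ran from 21226436 to 34333949 per sample, and the members had between 61 and 92940 counts, well above the floor of 3 counts. Markers of tongue keratinocytes were abundant, with a summed level of 148895 to 181016 CPM (the reads of a gene scaled to a common library size) in PBS and 122376 to 154410 in DT, and of the 9 such markers Rptn was called lower in DT. Among 8 markers of Langerhans cells, 3 were called lower (Cd207, Mfge8 and Il10ra), against 0.857% of all tested genes. The others were not called. Log2 fold changes were -0.03 for Epcam, -0.08 for Cd74, -0.13 for H2-Ab1, 0.03 for H2-Aa and 0.18 for Itgax. The summed levels of the 8 overlapped, at 243 to 331 CPM in PBS and 227 to 317 CPM in DT. Of 3 red-cell markers, 2 were called lower (the globin genes Hba-a1 and Hbb-bs). The part of these cell types in the values of the members was not tested. Samples also differed along a first principal component (26.6% of the variance) that does not follow the labels: PBS 5, PBS 6 and DT 1 to DT 3 lay on one side, PBS 1 to PBS 4 and DT 4 to DT 6 on the other. No label gives what this split stands for, and values are therefore also given within each side. The sides were set from these same libraries after the data had been seen, so p-values within a side are descriptive only.

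Promoter windows from RefSeq (build GRCm38.p6) were at hand for 8 of the 9 genes, 11 windows in all. They are shown because 4 of the 8 genes, Eef2, Eef2k, Dph1 and Dph3, share the word CACGTG, known as an E-box. This word reads the same on both strands. It was found in 4 of the 11 windows, against 7.15% of the 32851 windows of the whole table, and in 8.09% of the 27025 genes that have one. The windows shown run from 100 bases before to 30 bases after the annotated start, 5′ to 3′ on the gene's strand. The search covered longer windows than those shown. Capitals mark CACGTG and, in Eef2, also TATAAA.
Eef2: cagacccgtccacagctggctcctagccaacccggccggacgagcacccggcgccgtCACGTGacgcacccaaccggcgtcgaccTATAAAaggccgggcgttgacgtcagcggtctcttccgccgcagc
Eef2k: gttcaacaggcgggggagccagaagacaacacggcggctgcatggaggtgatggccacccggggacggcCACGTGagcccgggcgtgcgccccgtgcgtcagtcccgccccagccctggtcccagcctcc
Dph1: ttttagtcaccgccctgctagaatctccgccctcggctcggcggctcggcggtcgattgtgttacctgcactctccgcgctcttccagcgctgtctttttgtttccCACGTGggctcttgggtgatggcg
Dph3: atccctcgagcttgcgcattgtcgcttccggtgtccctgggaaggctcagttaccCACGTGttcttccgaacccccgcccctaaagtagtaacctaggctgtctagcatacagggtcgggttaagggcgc
The Eef2 window is chr10:81176531-81176660 on the plus strand, and its TATAAA begins 15 bases before the annotated start. TATAAA, searched on both strands, was present in 3 of the 11 windows (genes Dnajc24, Dph3 and Eef2), against 13.6% of all windows. The Eef2k window is chr7:120842731-120842860 on the plus strand and is 1 of the 3 starts listed for that gene. The Dph1 window is chr11:75190454-75190583 and that of Dph3 chr14:32085257-32085386, both on the minus strand. In Dph1 the word begins 6 bases after the annotated start, and in the other 3 genes before it. Dph3 also has another listed start, and the other windows of Eef2k and Dph3 lack the word. Such a match is a description of letters and not a site of binding. Of the 4 genes that hold the word, Eef2 and Eef2k were higher in DT 4 to DT 6 than in DT 1 to DT 3, and Dph1 and Dph3 lower. A link between the word and these levels was not tested.

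The target of the toxin was by far the most abundant member. Per kilobase of its principal transcript (3089 bases), Eef2 stood at 727 ± 49.1 CPM per kb in PBS and 800.3 ± 51.9 in DT (SD, n = 6 each). Not scaled by length, it ranked 40 of the 14231 tested genes. Its kinase Eef2k was at 7.55 ± 0.287 CPM per kb in PBS and 7.50 ± 0.905 in DT, so that Eef2 exceeded it 96.2-fold in PBS. The members thus fell into 1 gene of very high level and 8 far below it. Not scaled by length, Eef2k ranked 3343 and the genes of diphthamide synthesis from 6000 (Dph3) to 10421 (Dph7).

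The genes of diphthamide synthesis all had levels per length far below that of Eef2. In PBS, Dph3 was highest at 6.98 ± 0.413 CPM per kb and overlapped Eef2k in its sample values. Dph5 followed without overlap at 5.02 ± 0.331 CPM per kb, then Dph6 at 4.77 ± 0.762 and Dnajc24 at 3.77 ± 0.322, each overlapping its neighbour. Dph7 (1.77 to 2.22 CPM per kb from the lowest to the highest sample), Dph2 (1.41 to 1.88) and Dph1 (1.30 to 1.95) came last, below every sample of Dnajc24 and overlapping one another. By this length Eef2 stood at 421-fold the level of Dph2 and 467-fold that of Dph1. With the length of all annotated exons in place of the principal transcript, Dph5 was lowest at 0.985 CPM per kb, followed by Dph1 at 1.24, Dph7 at 1.42, Dph2 at 1.46 and Dph6 at 1.76, so the order of these genes depends on the length used. Dph1 shares its strand and part of its sequence with the gene Ovca2 (7.63 ± 0.442 CPM in PBS), and reads in the shared part can be lost or moved between them in counting.

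**Figure D1:**
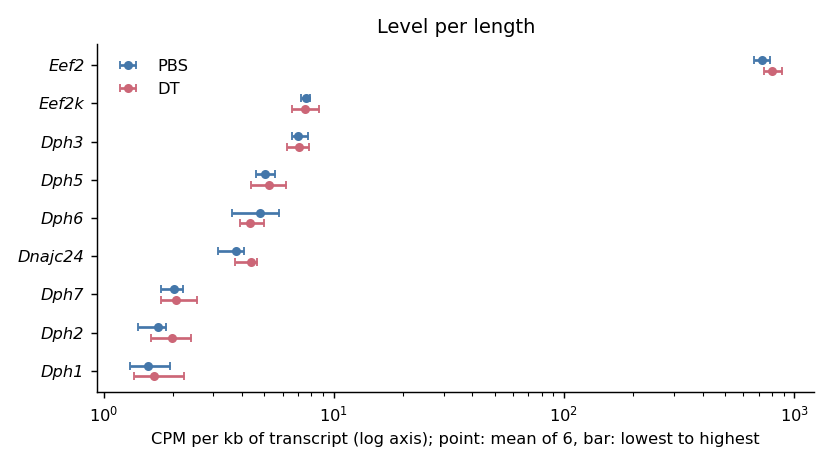
Level of the 9 genes as CPM per kilobase of principal transcript on a log axis, in PBS and DT; points are means of 6 samples and bars run from the lowest to the highest sample. Eef2 stands at 727 CPM per kb in PBS and the other 8 genes at 1.56 to 7.55.

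No member passed the test between DT and PBS. By edgeR's quasi-likelihood test, 0 of the 9 members had an adjusted p under 0.05, against 1.30% of all tested genes (185 of 14231; 0.443% higher and 0.857% lower in DT). At an unadjusted p under 0.05 there was 1 member, Dnajc24, against 15.4% of all genes. DESeq2 also called 0 members, against 567 of the 30102 genes it was given, a wider set than edgeR's. Fold changes were positive for 7 of the 9 members and for 51.6% of all genes, with a median log2 fold change of 0.06 for the members and 0.01 for all genes. None of the 9 members had groups that did not overlap, against 0.836% of all genes with every DT sample above every PBS sample and 1.37% with every one below. The intervals bound what the data allow, and the widest of them, that of Dph1, runs from a level 14.9% lower to one 31.8% higher in DT. A missed threshold does not show that levels were equal.

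**Figure D2:**
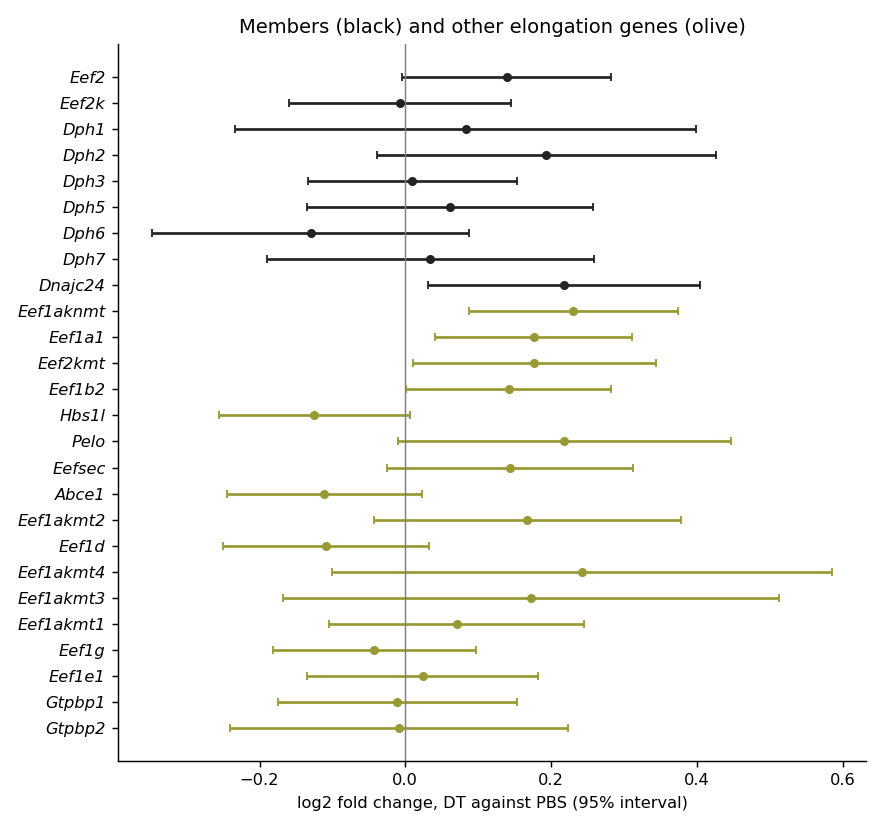
Log2 fold change of DT against PBS from the edgeR fit, with 95% intervals. Shown are the 9 members (black) and 17 other genes of translation elongation and related factors (olive). The intervals of 8 members include 0; that of Dnajc24 runs from 0.03 to 0.40 before adjustment over all genes.

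For Eef2 (ENSMUSG00000034994) the PBS samples ran from 2077 to 2436 CPM with a median of 2222, and the DT samples from 2280 to 2730 with a median of 2488. The groups overlapped, with 4 DT samples above every PBS sample and all 6 above the PBS median. The fit put Eef2 10.1% higher in DT, with a 95% interval from 0.283% lower to 21.6% higher (log2 fold change 0.14 ± 0.07 SE, edgeR adjusted p = 0.343). The fold change of Eef2, like that of other genes, depends on how libraries are scaled. The TMM factor, by which edgeR corrects library sizes for unequal composition, ran from 0.894 to 0.992 in PBS and from 0.971 to 1.09 in DT (two-sided exact permutation p = 0.0238). With library size alone the log2 fold change of Eef2 was 0.25 (edgeR adjusted p = 0.0613), a setting that moved the median of all genes by 0.11.

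As a plain share of all counts, Eef2 took 0.216 ± 0.011% in PBS and 0.257 ± 0.0269% in DT. In 5 of the 6 DT samples the share lay above the PBS range of 0.206 to 0.233%, at 0.239 and 0.243% in DT 2 and DT 3 and at 0.271 to 0.294% in DT 4 to DT 6, and DT 1 at 0.221% lay inside it. This difference had a two-sided exact permutation p of 0.00649 (n = 6 each) and an adjusted p of 0.0829 over all tested genes. By the same measure 21.8% of all genes were higher in DT at an unadjusted p under 0.05, so a higher share was common to many genes.

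The 2 sides of the first principal component gave unlike values for Eef2. Among PBS 1 to PBS 4 and DT 4 to DT 6, the PBS samples were at 2077 to 2296 CPM and the DT samples at 2513 to 2730, without overlap, and the log2 fold change was 0.26 (edgeR adjusted p = 0.0240). With PBS 5 and PBS 6 at 2394 to 2436 CPM and DT 1 to DT 3 at 2280 to 2464, the other side overlapped and gave -0.03 (edgeR adjusted p = 0.907). In the former set 1120 genes were called and in the latter 3. As the sides were set from these same libraries, the adjusted p-values within them are descriptive only. Whether the effect on Eef2 differs between the sides was not tested. With the component as a covariate in all 12 samples, Eef2 stood at 0.14 (edgeR adjusted p = 0.160).

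The inhibitory kinase Eef2k (ENSMUSG00000035064) had nearly the same mean in both groups but a wide spread in DT. The PBS samples lay between 47.4 and 51.7 CPM with a median of 49.7, and the DT samples between 43.4 and 56.6 with a median of 48.9. In DT 1, DT 2 and DT 3 the level was 43.4, 44.2 and 44.6 CPM, below every PBS sample. In DT 4, DT 5 and DT 6 it was 54.3, 56.6 and 53.2 CPM, above every PBS sample. Means of 49.7 ± 1.89 (PBS) and 49.4 ± 5.95 CPM (DT) gave a log2 fold change of -0.01 ± 0.07 SE (interval -0.16 to 0.14, edgeR adjusted p = 0.976). Within the side of DT 4 to DT 6 it was 0.15 (edgeR adjusted p = 0.175), and within the other side -0.19 (adjusted p = 0.234). The difference between the sides was not tested. The PBS samples on the 2 sides overlapped, with PBS 1 to PBS 4 at 47.4 to 51.7 CPM and PBS 5 and PBS 6 at 48.9 to 51.7.

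**Figure D3:**
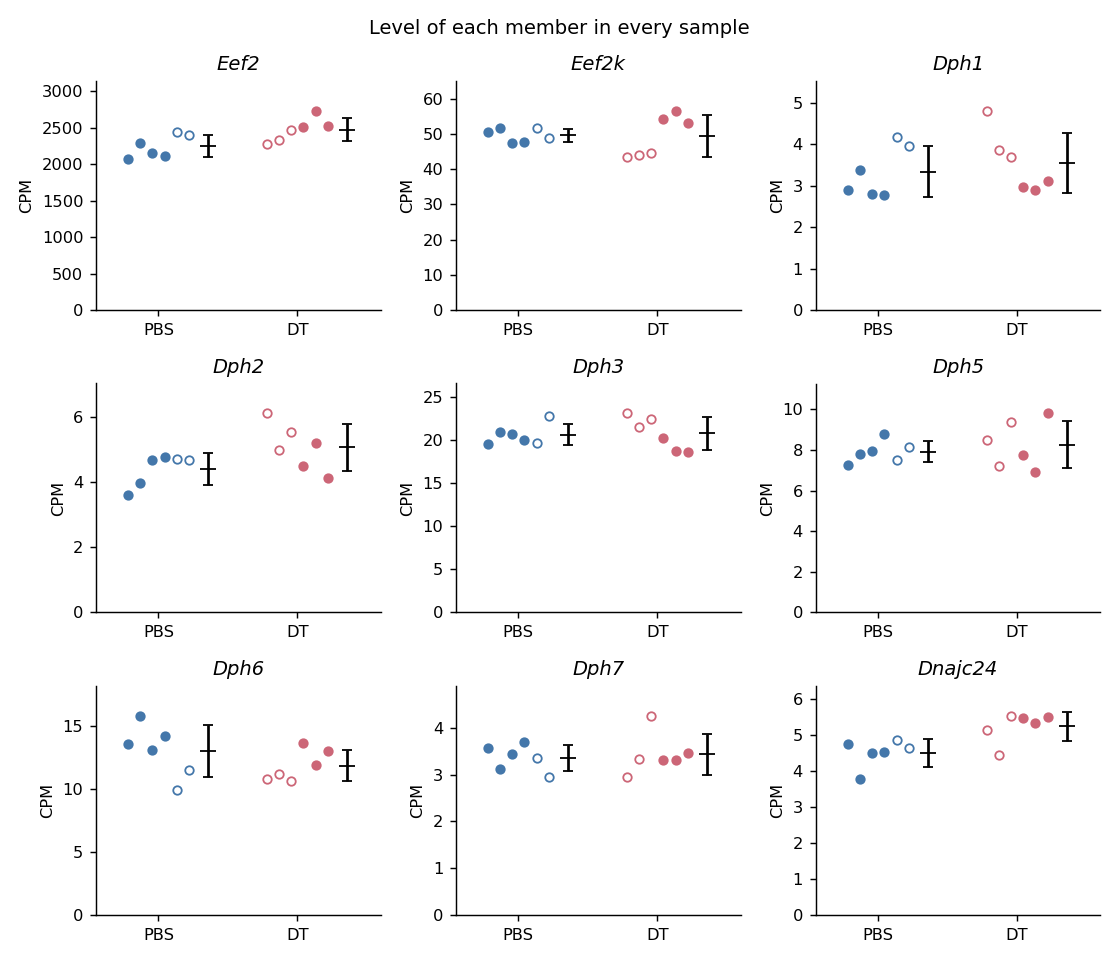
Level in CPM of each of the 9 genes in every sample, in PBS (blue) and DT (red), with replicates 1 to 6 from left to right and the mean ± SD of 6 samples in black; filled and open points are the 2 sides of the first principal component. Eef2k in DT lies at 43.4 to 44.6 CPM (open) or 53.2 to 56.6 CPM (filled), on either side of the PBS range.

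Reads of Eef2k relative to those of Eef2 do not depend on library scaling, since both are counted in the same library. This ratio was computed after the levels of both genes had been seen. There were 2.22 ± 0.133 Eef2k reads per 100 Eef2 reads in PBS, from 2.04 to 2.43, and 1.99 ± 0.141 in DT, from 1.81 to 2.16. The groups overlapped, and the two-sided exact permutation p was 0.0195 (n = 6 each), with an adjusted p of 0.133 over the same ratio for all genes. Within the side of DT 4 to DT 6 the 3 DT samples (2.07 to 2.16) lay below the 4 PBS samples (2.21 to 2.43). On the other side the DT samples (1.81 to 1.90) likewise lay below PBS 5 and PBS 6 (2.04 to 2.12). The ratio to Eef2 was lower in DT at an unadjusted p under 0.05 for 24.2% of all genes, and higher for 1.24%, so the lower value is one that Eef2k shares with many genes. These values rest in part on Eef2 itself, which is the divisor of every ratio. Among the other 7 members the fold of this ratio, DT over PBS, ran from 0.820 for Dph6 (exact permutation p = 0.0606) to 1.05 for Dnajc24 (p = 0.353).

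**Figure D4:**
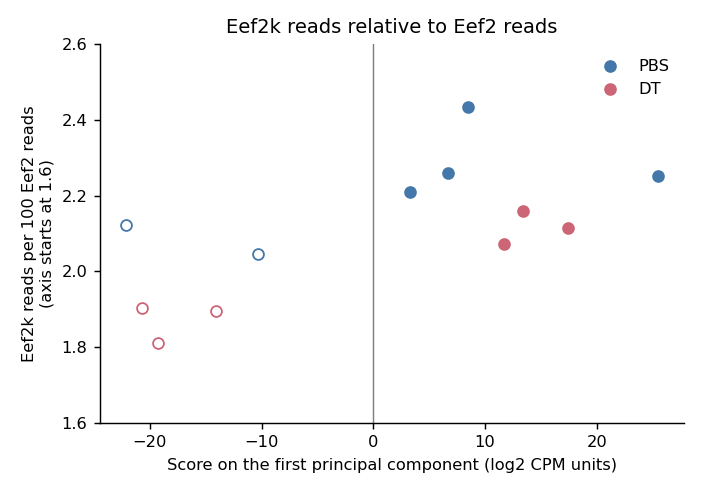
Eef2k reads per 100 Eef2 reads (axis from 1.6) against each sample's score on the first principal component, for PBS (blue) and DT (red). On each side of 0 the DT samples lie below the PBS samples, at 1.81 to 1.90 against 2.04 to 2.12 on the left and at 2.07 to 2.16 against 2.21 to 2.43 on the right.

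Dnajc24 (ENSMUSG00000027166), the J-domain protein of diphthamide synthesis, had the smallest p of the members. Its PBS samples ran from 3.77 to 4.85 CPM with a median of 4.59, and its DT samples from 4.45 to 5.54 with a median of 5.41. In 5 of the 6 DT samples the level lay above every PBS sample, and DT 2 at 4.45 CPM lay within the PBS range. With means of 4.51 ± 0.385 and 5.25 ± 0.413 CPM, the fit gave a log2 fold change of 0.22 ± 0.09 (SE; 95% interval 0.03 to 0.40; edgeR quasi-likelihood test, unadjusted p = 0.0248, adjusted p = 0.237). This is 16.3% higher in DT, with 86 to 203 reads per sample behind each value. Within the 2 sides the log2 fold change was 0.31 (edgeR adjusted p = 0.125, with DT 4 to DT 6) and 0.09 (adjusted p = 0.809, with DT 1 to DT 3).

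Dph2 (ENSMUSG00000028540) and Dph1 (ENSMUSG00000078789), which together form the enzyme of the first step, had positive fold changes that did not pass. Dph2 ran from 3.61 to 4.79 CPM in PBS (median 4.68) and from 4.12 to 6.12 CPM in DT (median 5.10), with 4 DT samples above every PBS sample. Its log2 fold change was 0.19 ± 0.11 (SE; edgeR adjusted p = 0.429). Dph1 ran from 2.78 to 4.17 CPM in PBS (median 3.14) and from 2.89 to 4.80 in DT (median 3.40), with a log2 fold change of 0.08 ± 0.15 (SE; edgeR adjusted p = 0.851). The spread of Dph1 followed the sides of the component in both groups. PBS 1 to PBS 4 and DT 4 to DT 6 were at 2.78 to 3.38 CPM, and PBS 5, PBS 6 and DT 1 to DT 3 at 3.68 to 4.80 CPM, with no sample of one set inside the range of the other. The component was built from all tested genes. The share of genes that separate by side was not computed, so this separation is not shown to be particular to Dph1.

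Dph6 (ENSMUSG00000057147), the enzyme of the final amidation, showed the opposite arrangement. PBS 1 to PBS 4 with DT 4 to DT 6 were at 11.9 to 15.8 CPM, and PBS 5, PBS 6 with DT 1 to DT 3 at 9.90 to 11.6 CPM. Over all samples PBS ran from 9.90 to 15.8 CPM (median 13.4) and DT from 10.7 to 13.7 (median 11.6). Its log2 fold change of -0.13 ± 0.10 SE (interval -0.35 to 0.09, edgeR adjusted p = 0.594) was the lowest of the members. In both genes the gap between the 2 sets of samples was larger than that between DT and PBS. Since the sets were defined from these libraries, no test was made between them. For Dph6, too, the separation is not shown to be particular to the gene.

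Dph3 (ENSMUSG00000021905), the electron donor, was the steadiest of the genes of diphthamide synthesis in PBS. It ran from 19.5 to 22.8 CPM there (median 20.4) and from 18.6 to 23.1 CPM in DT (median 20.9), for a log2 fold change of 0.01 ± 0.07 SE (interval -0.13 to 0.15, edgeR adjusted p = 0.968). In DT 1 to DT 3 it was at 21.6 to 23.1 CPM and in DT 4 to DT 6 at 18.6 to 20.3, the reverse of Eef2k. The methyltransferase Dph5 (ENSMUSG00000033554) ran from 7.27 to 8.78 CPM in PBS and from 6.92 to 9.81 in DT (log2 fold change 0.06 ± 0.09 SE, edgeR adjusted p = 0.814). Dph7 (ENSMUSG00000026975), which removes the methyl group, ran from 2.95 to 3.69 CPM in PBS and from 2.95 to 4.26 in DT (0.03 ± 0.11 SE, edgeR adjusted p = 0.917). The groups overlapped for both genes. For Dph5, DT 3 and DT 6 (9.37 and 9.81 CPM) lay above the PBS range and DT 2 and DT 5 (7.22 and 6.92 CPM) below it, and for Dph7 DT 3 alone lay above it.

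**Figure D5:**
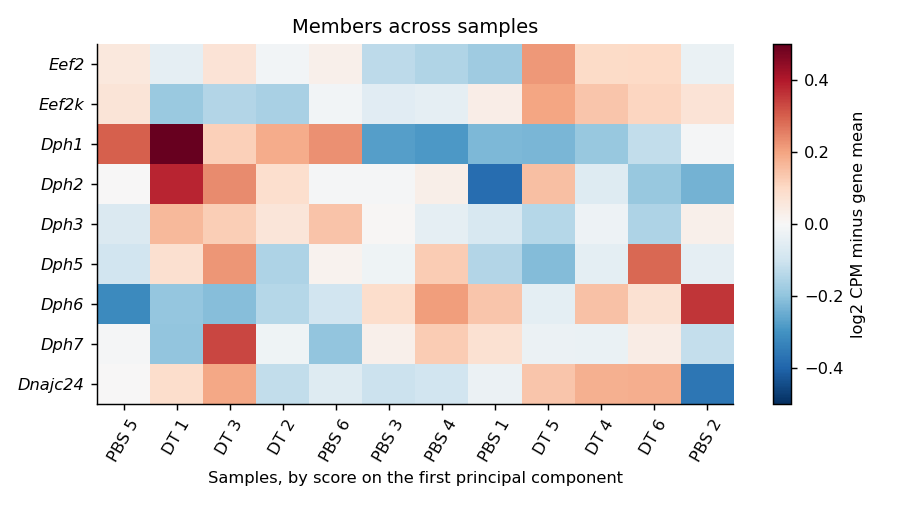
Log2 CPM of the 9 genes minus each gene's mean over 12 samples, with samples ordered by their score on the first principal component from low (left) to high (right). Dph1 is high in the 5 samples on the left and Dph6 is low in them, and neither follows the DT and PBS labels.

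No relation of Eef2 with another member across samples passed the test. Eef2 was set against each of the 8 other members and against the mean of 79 genes of cytosolic ribosomal proteins, 9 relations over 12 samples, and 0 of them had an adjusted p under 0.05. Its strongest relation was with Dnajc24 (Pearson's r = 0.57, permutation p = 0.0531, adjusted p = 0.478; Spearman's rho = 0.65, permutation p = 0.0263, adjusted p = 0.237). Without DT 5 and PBS 1, the 2 samples farthest from the median of Eef2, r was 0.61, and with each group centred on its mean it was 0.24 (permutation p = 0.454). With Eef2k the values were r = 0.48 (permutation p = 0.111, adjusted p = 0.500), rho = 0.56 (permutation p = 0.0629, adjusted p = 0.283) and 0.42 without those 2 samples. Centred on the group means, the relation with Eef2k had r = 0.68 (permutation p = 0.0173, adjusted p = 0.156). Centred values were shuffled over all 12 samples and not within groups, although the groups differ in spread. The p-values of centred relations are therefore descriptive only. With the ribosomal protein genes r was 0.20 (permutation p = 0.537, adjusted p = 0.806), rho 0.21 (permutation p = 0.516, adjusted p = 0.714) and 0.20 without those samples. The other 6 relations had r between -0.36 and 0.29.

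The genes most like Eef2 over the 12 samples were not members of its pathway. Compared were 12358 genes that averaged 1 CPM or more. The highest Pearson correlations of log2 CPM were those of Kdm1a, a histone demethylase (0.94), Acaa2, a thiolase of mitochondrial fatty acid oxidation (0.94), Vgll4, a cofactor of TEAD transcription factors (0.93), Lrrc42 (0.93) and Ppp1cc, a catalytic subunit of protein phosphatase 1 (0.93). Spearman's rho for the same 5 genes ran from 0.84 to 0.99, and r without DT 5 and PBS 1 from 0.85 to 0.90. As they were chosen as the most similar of many, no p is given. None of the 5 passed the test between DT and PBS, with log2 fold changes of 0.07 to 0.16. Eef1a1, which encodes the factor that brings aminoacyl-tRNA to the ribosome, ranked 39 with r = 0.85.

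Other genes of translation elongation, of related factors and of their modification gave 0 calls by edgeR among 17 tested of 18 listed. At an unadjusted p under 0.05, 4 were higher and 0 lower, against 7.43% of all genes higher, and their median log2 fold change was 0.14, against 0.01 for all genes. DESeq2 called 1 of them, Eef1a1 (log2 fold change 0.17, DESeq2 adjusted p = 0.0191), which by edgeR had an adjusted p of 0.192. Of the 30102 genes given to DESeq2, 185 were called higher and 382 lower. Eef1a1 ran from 4536 to 5162 CPM in PBS (median 4707) and from 5112 to 5610 in DT (median 5409), with 5 DT samples above every PBS sample. The methyltransferase Eef1aknmt, which acts on that same factor, had a mean of 9.83 ± 0.572 CPM in PBS (8.88 to 10.4) and 11.5 ± 0.843 CPM in DT (10.6 to 12.6), without overlap (log2 fold change 0.23, edgeR adjusted p = 0.106). Eef1b2, a subunit of the nucleotide exchange factor, stood at 0.14 (edgeR adjusted p = 0.318), whereas its partners Eef1g (-0.04, adjusted p = 0.818) and Eef1d (-0.11, adjusted p = 0.468) had negative values. The signs of these 3 subunits thus differed, with no subunit past the threshold.

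In the pathway of eIF5A, a further elongation factor with a residue unique to it (hypusine), edgeR and DESeq2 each called 0 of 4 genes, and 0 reached an unadjusted p of 0.05. Eif5a averaged 747 ± 68.0 CPM in PBS against 730 ± 82.0 CPM in DT (log2 fold change -0.03, edgeR adjusted p = 0.892), and Dhps, the enzyme of the first step of hypusine synthesis, stood at 0.15 (adjusted p = 0.450). The mitochondrial counterpart of elongation factor 2 carries no diphthamide. Of 5 genes of mitochondrial elongation factors and related factors, 0 passed by either tool. Against 15.4% of all genes, 1 of the 5 had an unadjusted p under 0.05 by edgeR. This was Gfm2, with 23.3 ± 0.768 CPM in PBS, 21.7 ± 0.629 CPM in DT and no overlap (-0.10, edgeR adjusted p = 0.316), next to Tsfm at 0.13 (adjusted p = 0.435). The GTPases related to elongation factor 2, Efl1 of ribosome maturation (-0.11, adjusted p = 0.383) and Eftud2 of the spliceosome (-0.01, adjusted p = 0.946), gave 0 calls by both tools and 0 at an unadjusted p under 0.05.

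The Elongator complex modifies tRNA and, in yeast, shares Dph3 with diphthamide synthesis. Of 7 tested genes, those of Elongator and Kti12, both tools called 0, and 0 reached an unadjusted p of 0.05; their median log2 fold change was 0.03. Elp6 stood at 0.16 (edgeR adjusted p = 0.560). Of 17 upstream regulators of Eef2k, among them calmodulin, AMP-activated kinase, mTOR and S6 kinase genes, 0 passed by either tool, and 2 were higher at an unadjusted p under 0.05, against 7.43% of all genes. These were Prkaa2 (7.85 ± 1.11 and 9.49 ± 1.26 CPM in PBS and DT, 0.27, edgeR adjusted p = 0.220) and Prkab1 (17.2 ± 0.986 and 19.1 ± 1.03 CPM, 0.15, adjusted p = 0.225), which encode subunits of AMP-activated kinase. The 4 other subunit genes in the list, Prkaa1, Prkab2, Prkag1 and Prkag2, named after their values were seen, had log2 fold changes from -0.03 to 0.07.

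Genes through which the toxin enters cells also gave 0 calls by edgeR and DESeq2 among 8 tested. At an unadjusted p under 0.05 by edgeR, 1 was higher and 1 lower, against 1058 and 1130 of all 14231 genes tested. Hbegf, the mouse gene of the receptor protein, averaged 20.7 ± 3.08 CPM in PBS and 24.7 ± 3.15 CPM in DT, with all 6 DT samples above the PBS median of 21.4 (log2 fold change 0.25, edgeR adjusted p = 0.242). Whether reads of the human transgene are counted under Hbegf is not given in the sources used here. Txnrd1, a reductase that can release the toxin's catalytic fragment, was at 184 ± 30.5 and 151 ± 22.3 CPM (-0.29, adjusted p = 0.209). A list of 16 genes of the integrated stress response, a stress programme linked to translation, and of related factors gave 0 calls by both tools. At an unadjusted p under 0.05 by edgeR, 1 was higher and 2 lower, against the same 1058 and 1130 of all genes. Nupr1 (-0.25, edgeR adjusted p = 0.176) and the kinase gene Eif2ak1 (-0.16, adjusted p = 0.178) had the smallest p in that list, whose median was -0.03.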

How the data were processed

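RNA was measured in 12 samples of tongue epithelium, grouped by their titles. The authors deposited whole-number read counts per gene, and a normalized signal, which was not used. The authors used cutadapt 2.10, TopHat2 2.1.1, HTSeq 2.01, DESeq2 1.36.0 and build GRCm39, per the submitters' processing notes; the annotation and strand setting are not given in the sources used here. Of the genes listed, 6250 had blank counts and were left out, and 0 columns belonged to no sample. Without a known strand setting, reads of Dph3 and Oxnad1, which overlap on opposite strands, may be shared. The same holds for Dnajc24, Dph5, Dph6 and Eef2k, each of which overlaps at least 1 annotated gene on the opposite strand. Dph5, Eef2k and Eef2 also overlap annotated genes on their own strand, as Dph1 does.

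The test was that of edgeR 4.0.16 (R 4.3.3): filterByExpr (minimum count 10), TMM scaling, and the quasi-likelihood F test (two-sided, no covariate) with Benjamini-Hochberg adjustment over all 14231 genes tested and a threshold of 0.05. DESeq2 1.42.0 was an alternative. CPM values are on TMM-scaled libraries, SE and 95% intervals come from the F statistic, and values after ± are SD over 6 samples unless marked SE. Log2 CPM for correlations used a prior count of 2, and correlations used 100000 permutations. The Eef2 share of counts and the ratio of Eef2k to Eef2 reads were added after the data had been seen; their p-values are from two-sided exact permutation tests, for which 0.00216 is the smallest possible.

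Transcript lengths and gene neighbours came from GENCODE M21 (GRCm38), used for lengths and names only, and promoters from RefSeq. The genes named were the 9 members, Cd207, in each list every called gene or otherwise the 2 with the smallest p, 6 fixed genes (Eef1a1, Eef1b2, Eef1g, Eif5a, Eef1d and Hbegf) and the 5 genes most like Eef2; 1 gene that this rule takes from a list is not reported here. The markers of Langerhans cells are named in full. The members and lists were chosen with earlier results of these data known. Replicates in a group were not repeats of one library (chi-square per degree of freedom 6.87 to 62.0). The labels do not say that each sample is a separate mouse, and if some are not, p-values measure only the spread between samples.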

Additional observations from a re-analysis of the deposited data

Results flagged for a closer look

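Among the 20 groups of 6 samples examined for the members and Cd207, 2 had a sample far from the others, where chance gives about 1 in 20. Both concern Dnajc24. In PBS, PBS 2 stood at 3.77 CPM and the other 5 samples at 4.50 to 4.85 CPM. In DT, DT 2 stood at 4.45 CPM and the others at 5.16 to 5.54 CPM. Without PBS 2 the log2 fold change of Dnajc24 was 0.18 (edgeR adjusted p = 0.386), and without DT 2 it was 0.26 (adjusted p = 0.179).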

How the results depend on the processing

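Of the 14231 genes tested, 185 were called. With library size alone 553 were called (484 higher, 69 lower), with DESeq2 567, with the first principal component as a covariate 1325, and with upper quartile scaling 169 (81 higher, 88 lower, against 63 and 122). Leaving out 1 sample gave 46 (without DT 5) to 263 (without DT 1). Within the side of DT 4 to DT 6, a split chosen after the data had been seen, 1120 were called, and within the other side 3. The cause of these differences was not tested, but the last 2 fits hold 7 and 5 samples. Members called stayed at 0 in all of these settings but that of the DT 4 to DT 6 side, where 1, Eef2, was called. Replicate numbers gave no sign of pairing (same-number correlations -0.325 to 0.107, and 0 of 6 samples matched their own number best). This check over all genes cannot settle pairing, because the first component separates most same-number samples. PBS 1 to PBS 3 lie opposite DT 1 to DT 3 on it, and PBS 5 and PBS 6 opposite DT 5 and DT 6. With the replicate block 8 genes were called, 0 of them members, with Eef2 at 0.14 (edgeR adjusted p = 0.517).

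The log2 fold change of Eef2 was 0.11 to 0.17 without 1 sample, 0.13 to 0.25 in the other fits to all samples, and 0.26 and -0.034 within the sides. Dnajc24 stayed between 0.18 and 0.33 in fits to all or all but 1 of the samples, with adjusted p from 0.0670 to 0.476. Values near 0 changed sign. Eef2k was at 0.012 with upper quartile scaling, 0.10 with library size alone, 0.0036 with the component as covariate, 0.15 within the DT 4 side, -0.19 within the other side (edgeR adjusted p = 0.234), and -0.051 to 0.031 without 1 sample. Dph3 was at -0.0083 with the covariate, -0.081 within the DT 4 side and -0.019 to 0.042 without 1 sample. Dph1 ran from -0.016 to 0.16 and Dph7 from -0.030 to 0.077 without 1 sample, Dph7 was at -0.039 within the DT 4 side, and Dph6 at 0.020 within the other. With each group centred, r of Eef2 was -0.033 with Dph2 and -0.25 with the ribosomal protein genes. The difference in Eef2k reads per 100 Eef2 reads, DT minus PBS, was -0.172 within the DT 4 side (exact permutation p = 0.0571, smallest possible 0.0286) and -0.213 within the other (p = 0.1, the smallest possible), and -0.262 to -0.184 without 1 sample. The difference in the Eef2 share of counts was 0.0676 percentage points within the DT 4 side (exact permutation p = 0.0286, the smallest possible), 0.00887 within the other side (exact permutation p = 0.4) and 0.0405 over all samples. Depth limits the genes of fewest reads, such as Dph1 with 61 to 135 per sample.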
